A study of Mus musculus with 6 samples.

Results

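The genes described here encode the proteins of the cytosolic ribosome, together with near-identical copies of them elsewhere in the mouse genome. Members were chosen by name: symbols starting with Rpl or Rps and a digit, Rplp and a digit, or Rpsa, without the kinase and binding-protein genes that share the prefix. Of 412 such names, 123 had a mean of at least 1 CPM (counts scaled to a common library size) over the libraries, out of 55401 genes in the table. They comprise 85 genes (51 of the large and 34 of the small subunit) and 38 copies of 31 of these genes, where a copy is a name with -ps, Rps3a2 or Rps3a3. The GENCODE M21 annotation lists 82 of the 85 genes as protein-coding, 2 as transcribed processed pseudogenes and 1 as a processed pseudogene. The copy just inside the level threshold was Rpl17-ps10 at a mean of 1.43 CPM, and the one just outside it was Rps13-ps1 at 0.658 CPM.

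RNA was sequenced from cultured cancer-associated fibroblasts (CAFs), the fibroblasts found inside tumors. They came from tumors grown by implanting mouse tumor organoids into the rectum of WT mice or of Thbs2KO mice, labelled as a knockout of the gene of thrombospondin-2, a secreted matrix protein. There were 3 libraries of each genotype, and both groups carried implanted organoid tumors. After isolation the cells were grown on fibronectin in medium with serum, so the values describe CAFs in culture. The labels do not give the strain, the design of the knockout allele, the time or the age of the mice, nor whether the libraries of a group came from separate animals. A p-value therefore speaks of the spread among these libraries, which may be technical.

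Library totals ran from 19649066 to 24417464 expected counts. Thbs2 itself was at 2327, 4166 and 3705 CPM in the WT libraries and at 538, 425 and 412 CPM in the Thbs2KO libraries, with a log2 fold change of -2.89 (adjusted p = 0.00521, edgeR). The 10 fibroblast markers summed to between 33832 and 38886 CPM in WT and between 33390 and 52573 CPM in Thbs2KO. The highest sum was that of Thbs2KO library 3, where Postn was at 12989 CPM. Of the 10, 8 had a log2 fold change above 0 and 2 below (median 0.33), with none called by edgeR and 1 called higher by DESeq2. Pdgfra was at 751, 556 and 388 CPM in WT and at 1013, 947 and 1527 CPM in Thbs2KO (adjusted p = 0.172, edgeR). The 9 epithelial markers summed to 24.3 to 33.7 CPM in WT and to 12.3 to 17.9 CPM in Thbs2KO. The log2 fold change was below 0 for all 7 epithelial markers tested (median -1.30). EdgeR called none of them, with 2 at an unadjusted p under 0.05 (Krt19 and Krt20, adjusted p = 0.079 and 0.0803), and DESeq2 called 2. Of the 8 immune markers, with sums of 3.86 to 14.4 CPM and 2.15 to 9.04 CPM, Cd3e was at 0 in all libraries, and of the 6 endothelial markers, with sums of 11.7 to 31.7 CPM and 32.0 to 50.5 CPM, Cldn5 was. The endothelial sums differed mainly through Kdr, at 2.50, 26.3 and 10.6 CPM in WT and 45.0, 28.0 and 21.5 CPM in Thbs2KO. Kdr overlapped between the groups and was not called (adjusted p = 0.545, edgeR). Tek had a log2 fold change of -0.01, and Pecam1, Cdh5 and Vwf were under 1 CPM in every library. The part of the markers of all 4 cell types in the results below was not tested. Thbs2KO libraries 1 and 2 were the most alike pair: their chi-square, divided by its degrees of freedom, was 3.78, and the other pairs of one genotype had 15.7 to 68.5.

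Ribosomal proteins assemble with ribosomal RNA into a small subunit, which reads the messenger RNA, and a large subunit, which joins amino acids. Their genes are among the most strongly transcribed in dividing cells and are expressed in balance, since each ribosome takes a fixed number of most of the proteins. Their abundant messenger RNAs are also often copied back into the genome by reverse transcription, which leaves intronless processed pseudogenes. Some of these differ from the gene at few bases and can share many short reads with it.

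Most of the 85 genes differed little between the genotypes, whereas 5 copies were higher in Thbs2KO CAFs. These copies belong to only 3 genes, Rps3a1, Rpl34 and Rps2, and the same 3 genes were lower in every Thbs2KO library than in any WT library. Of these 3, edgeR called only Rps3a1, and the groups did not overlap, in either direction, for 19.7% of all genes tested. The coding sequence around bases that tell the gene from its copy is shown first, because within the coding part such bases bear on where a read can be given. The gene transcripts also hold bases outside the coding part, which are not shown. Rps3a1 has 795 coding bases in a transcript of 977, Rpl34 354 in 480 and Rps2 882 in 998. Capitals mark, in the gene, the bases at which a copy of the set differs from it and, in a copy, its own differences from the gene. Positions are counted from 1 at the first base of the coding part of the gene, and the sequences come from GENCODE M21 transcripts on GRCm38 (mm10). In a substitution, the base of the gene comes first, then its position, then the base of the copy.

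Coding bases 526 to 645 of Rps3a1 and of its copies hold T534C of both copies, G582T of Rps3a3 alone and A645T of Rps3a2 alone.
Rps3a1: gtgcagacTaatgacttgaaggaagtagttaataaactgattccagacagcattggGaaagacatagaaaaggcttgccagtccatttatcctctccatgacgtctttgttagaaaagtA
Rps3a2: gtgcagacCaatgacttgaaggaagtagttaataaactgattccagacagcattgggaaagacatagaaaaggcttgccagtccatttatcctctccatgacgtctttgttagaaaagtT
Rps3a3: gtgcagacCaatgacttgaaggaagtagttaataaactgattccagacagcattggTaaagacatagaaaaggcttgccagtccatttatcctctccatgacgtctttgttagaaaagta

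Coding bases 13 to 132 of Rpl34 and its copy differ at 1 base, T132C.
Rpl34: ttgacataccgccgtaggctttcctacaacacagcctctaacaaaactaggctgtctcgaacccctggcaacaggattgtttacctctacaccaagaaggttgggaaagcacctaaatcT
Rpl34-ps1: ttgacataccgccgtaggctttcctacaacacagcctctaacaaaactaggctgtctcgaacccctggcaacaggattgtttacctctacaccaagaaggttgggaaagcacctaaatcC

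Coding bases 181 to 300 of Rps2 and one of its copies differ at 3 bases, T204C, T285C and G300A.
Rps2: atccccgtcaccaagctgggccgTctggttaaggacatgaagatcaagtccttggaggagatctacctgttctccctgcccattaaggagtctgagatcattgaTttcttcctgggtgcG
Rps2-ps6: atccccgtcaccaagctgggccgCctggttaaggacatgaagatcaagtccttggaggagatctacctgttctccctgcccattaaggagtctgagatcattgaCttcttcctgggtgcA

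Over its whole length Rps3a2 differed from the coding sequence of Rps3a1 at 4 of 792 bases, of which 3 lie at the third position of a codon. Rps3a3 differed at 9 of 795 bases, 7 of them at the third position of a codon. The copies share T216C and T534C. Rpl34-ps1 has only T132C and C318G, both at the third position of a codon. Rps2-ps6 has 7 mismatches and 24 gap bases, and Rps2-ps10 has 5 mismatches, of which 3 are shared with Rps2-ps6. Of all stretches of 50 bases in a copy, the share found unchanged in the gene was 76.7% for Rps3a2, 49.6% for Rps3a3, 71.5% for Rpl34-ps1, 56.2% for Rps2-ps6 and 74.8% for Rps2-ps10. A read from such a stretch cannot be given to gene or copy by its sequence, so the division of counts between them is an estimate and is uncertain for every family described here.

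Rps3a1 (ENSMUSG00000028081.6, chr3:86137940-86142702, minus strand) encodes a small-subunit protein placed near the exit of the messenger RNA. It was at 822, 864 and 829 CPM in the WT libraries and at 458, 446 and 499 CPM in the Thbs2KO libraries. The groups lay far apart, and the log2 fold change was -0.84 (95% interval -1.03 to -0.65, adjusted p = 0.00702, edgeR). Like all values here it is a level in bulk RNA, in which fewer cells of a type and less RNA per cell cannot be told apart. Leaving out Thbs2KO replicate 1 ended the call (log2 fold change -0.83, adjusted p = 0.081). So did leaving out Thbs2KO replicate 2 (log2 fold change -0.81, adjusted p = 0.063).

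Its copy Rps3a2 (ENSMUSG00000062611.4, chr14:88123017-88123808, minus strand), which lies in no other protein-coding gene, rose. It was at 17.9, 16.3 and 16.9 CPM in WT and at 323, 314 and 328 CPM in Thbs2KO. That is a log2 fold change of 4.24 ± 0.08 (SE, n = 3 per genotype, adjusted p = 6.06e-06, edgeR). The other copy, Rps3a3 (ENSMUSG00000059751.7, chr13:108670603-108671397, plus strand), lies inside Pde4d, a phosphodiesterase gene, on the same strand. It had 10 reads over all WT libraries, at 0.129, 0.307 and 0 CPM, and 10223 reads over the Thbs2KO libraries, at 166, 161 and 168 CPM. Rps3a3 was thus almost unseen in WT and higher in each Thbs2KO library, with a log2 fold change of 10.11 ± 0.38 (SE, n = 3 per genotype, adjusted p = 0.000135, edgeR). Resting on so few WT reads, it was 11.22 without WT replicate 2 and 9.53 without WT replicate 3. Its host Pde4d was at 14.7, 10.6 and 13.4 CPM in WT and at 9.79, 9.59 and 13.0 CPM in Thbs2KO and was not called (adjusted p = 0.626).

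Rpl34 (ENSMUSG00000062006.12, chr3:130726831-130730398, minus strand), a protein of the large subunit, was at 273, 289 and 285 CPM in WT and at 216, 222 and 218 CPM in Thbs2KO. The groups did not overlap, yet the log2 fold change of -0.37 (95% interval -0.52 to -0.21) did not pass in edgeR (adjusted p = 0.0628). DESeq2, which called 5.14% of the genes tested against 1.09% in edgeR, did call it (adjusted p = 1.86e-05), and edgeR called it without WT replicate 1 (adjusted p = 0.0433). Its copy Rpl34-ps1 (ENSMUSG00000068396.9, chr6:71124610-71124963, plus strand) was at 0.560, 0.351 and 0.335 CPM in WT and at 66.9, 72.6 and 76.0 CPM in Thbs2KO. The rise from 29 to 4452 reads over the libraries gave a log2 fold change of 7.42 ± 0.18 (SE, n = 3 per genotype, adjusted p = 1.61e-05, edgeR).

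Rps2 (ENSMUSG00000044533.15, chr17:24718116-24721929, plus strand) encodes a small-subunit protein near the messenger RNA entry channel. It was at 1803, 1905 and 1867 CPM in WT and at 1608, 1654 and 1406 CPM in Thbs2KO. Each Thbs2KO library was below each WT library, but the log2 fold change of -0.26 (95% interval -0.48 to -0.03) was not called (adjusted p = 0.308, edgeR). The 6 other members among the genes on chromosome 17 had log2 fold changes between -0.06 and 0.12. Its copy Rps2-ps10, inside Pde6a on the opposite strand, was at 24.1, 23.1 and 22.5 CPM in WT and at 176, 161 and 142 CPM in Thbs2KO. Here the log2 fold change was 2.78 ± 0.10 (SE, n = 3 per genotype, adjusted p = 0.000122, edgeR). The copy Rps2-ps6 (ENSMUSG00000095427.2, chr14:76236691-76237545, minus strand) was at 0.301, 0.307 and 0.587 CPM in WT and at 34.0, 23.1 and 26.5 CPM in Thbs2KO. It had 28 reads in WT and 1734 in Thbs2KO, a log2 fold change of 6.10 ± 0.29 (SE, n = 3 per genotype, adjusted p = 0.000304, edgeR).

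**Figure D1:**
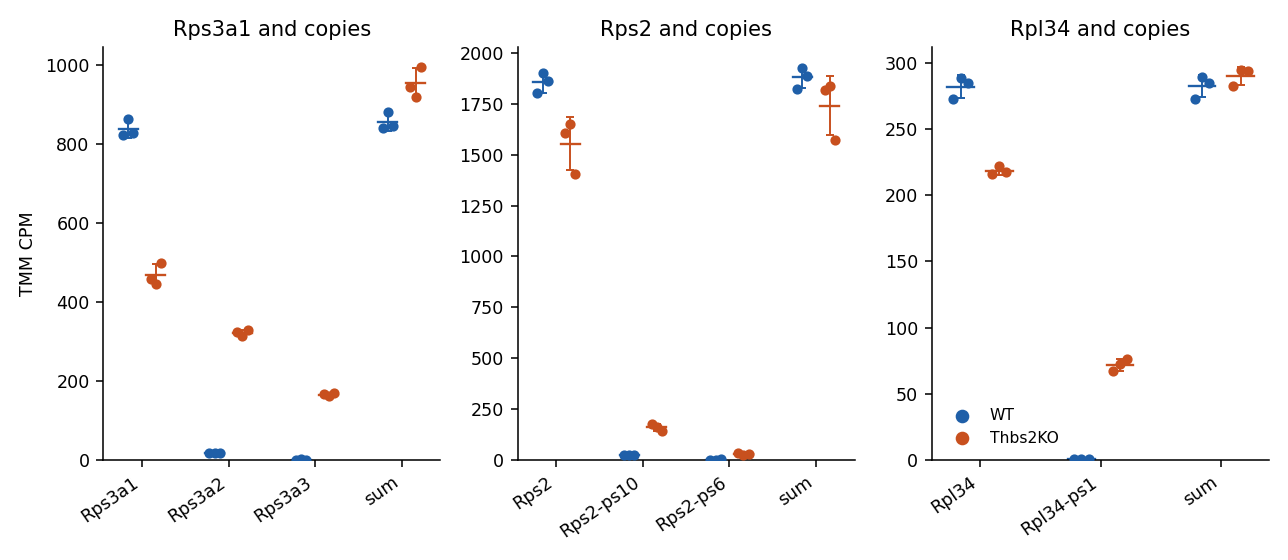
TMM CPM of Rps3a1, Rpl34 and Rps2, of their copies and of their sum in each of the 3 WT and 3 Thbs2KO libraries, 1 point per library. In Rps3a1 the gene falls from 838 to 468 CPM on average while the sum of gene and copies lies between 840 and 881 CPM in WT and between 921 and 996 CPM in Thbs2KO.

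Over all genes tested, 1.09% were called in either direction (148 of 13590), 0.552% higher and 0.537% lower in Thbs2KO. Of the 37 copies tested, 5 were called and all 5 were higher, which is 13.5%. Among the 421 annotated pseudogenes tested, which include these 5 copies, the called share was 5.23% (22 called). Of the 38 copies, 4 reached the level of 1 CPM through the Thbs2KO libraries alone, namely Rps3a3, Rpl34-ps1, Rps2-ps6 and Rpl30-ps9, so the share counts copies that had to differ. Rps3a2 and Rps2-ps10 were above 1 CPM in both groups. All 5 called copies passed in each of the 6 fits that left out 1 library.

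Summing each gene with its named copies removes the question of how reads were divided among them. Of 13546 rows tested after summing, 1.01% were called, and of the 85 ribosomal protein genes only Rps4l was. The groups did not overlap for 10 of the 85 after summing, against 19.6% of all rows tested. The Rps3a1 family was at 840, 881 and 846 CPM in WT and at 946, 921 and 996 CPM in Thbs2KO. With copies included, Rps3a1 was thus higher rather than lower in each Thbs2KO library, by a log2 fold change of 0.16 (95% interval -0.02 to 0.34), and was not called (adjusted p = 0.445, edgeR). The Rpl34 family was at 273, 290 and 285 CPM against 283, 295 and 294 CPM, groups that overlapped (log2 fold change 0.04, adjusted p = 0.877, edgeR). The Rps2 family was at 1827, 1929 and 1889 CPM against 1818, 1838 and 1575 CPM and overlapped too (log2 fold change -0.11, adjusted p = 0.717, edgeR).

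The share of a family that was given to its copies moved most in these 3 families. In Rps3a1 it was 2.01% ± 0.13 (SD, n = 3) in WT and 51.0% ± 1.01 (SD, n = 3) in Thbs2KO. In Rpl34 it went from 0.148% ± 0.049 to 24.7% ± 1.12, and in Rps2 from 1.26% ± 0.07 to 10.7% ± 0.77 (SD, n = 3 each). In CPM, the Rps3a1 gene was 371 lower and its copies 469 higher in Thbs2KO; for Rpl34 these differences were 63.7 and 71.4 CPM, and for Rps2 302 and 164 CPM. The difference in the gene was thus smaller than that in the copies for Rps3a1 and Rpl34 and larger for Rps2. In the other 28 families the copies held between 0 and 16.9% in any library, with Rpl14-ps1 the highest.

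Copies without a -ps name were found by matching the table's other annotated pseudogenes to the transcripts of the protein-coding members. Of 852 matched, 29 reached 1 CPM, 28 were tested and none was called by edgeR. DESeq2 called 1, which was also the only one with an unadjusted p under 0.05 in edgeR. It was Gm7143, a copy of Rps2 at 96.7% identity, at 0.129, 0.263 and 0.293 CPM in WT and 2.27, 2.94 and 0.831 CPM in Thbs2KO (log2 fold change 3.11, adjusted p = 0.0711 in edgeR and 0.000358 in DESeq2). With a WT mean of 0.228 CPM, Gm7143 reached 1 CPM through the Thbs2KO libraries alone, as did Gm12191, so both had to differ. The copy that did not pass the filter for testing, Gm12191 of Rpl30, was listed at 0 in all WT libraries and in Thbs2KO library 2, and was at 34.9 and 26.5 CPM in Thbs2KO libraries 1 and 3. With all of them added in as well, 1.03% of rows were called, Rps4l was still the only ribosomal protein gene called, and the Rps3a1 family had a log2 fold change of 0.16.

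**Figure D2:**
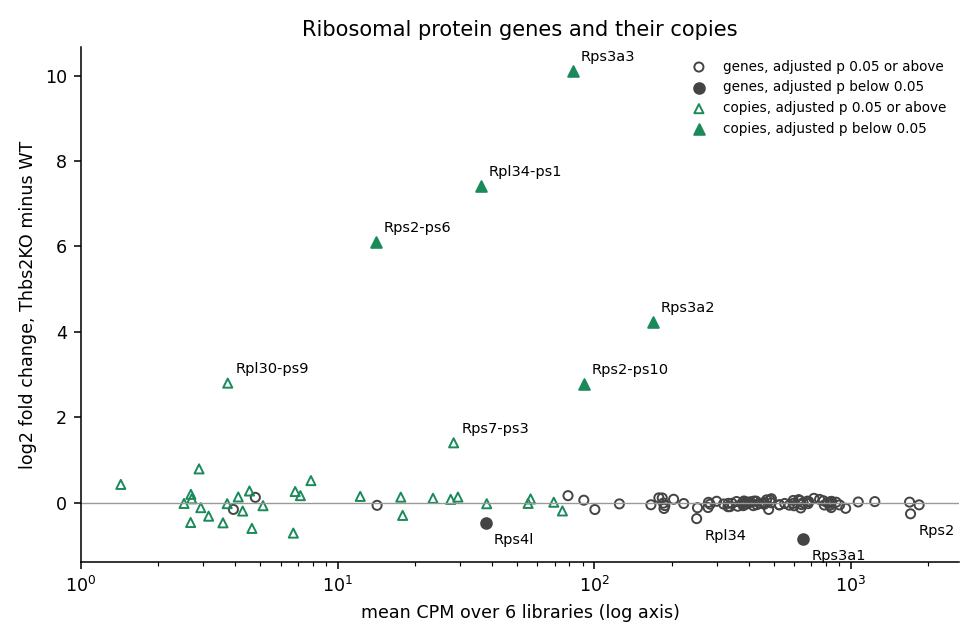
Log2 fold change (Thbs2KO minus WT) against mean CPM on a log axis for the 85 genes and the 37 tested copies, with called members marked. The genes lie between -0.84 and 0.17, while the 5 called copies stand between 2.78 and 10.11; Rpl30-ps9, at 2.80, is not called.

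A few other copies varied between the libraries of one genotype. Rps7-ps3, a copy of the small-subunit gene Rps7 with 3 mismatches, was at 15.8, 13.5 and 17.4 CPM in WT and at 51.9, 16.6 and 54.9 CPM in Thbs2KO. Thbs2KO library 2 was thus at the WT level and the groups overlapped (log2 fold change 1.41, adjusted p = 0.217, edgeR). Rpl30-ps9, with 2 mismatches to the large-subunit gene Rpl30, was at 0.861, 1.14 and 0.796 CPM in WT and at 6.005, 1.42 and 12.2 CPM in Thbs2KO. Again library 2 was the lowest of the Thbs2KO group, though above WT (log2 fold change 2.80, adjusted p = 0.161, edgeR); DESeq2 called both copies (adjusted p = 0.0127 and 0.00136). Rpl27-ps3, identical to Rpl27 over its length, was listed at 0 in WT library 1 and Thbs2KO library 2 and at 6.94 to 15.3 CPM in the others. Gm11518, a matched copy of Rpl27 at 100% identity, was highest in WT library 1 and Thbs2KO library 2, at 16.3 and 15.2 CPM. In the others Gm11518 was at 3.81 to 9.68 CPM. Rpl7a-ps11 was at 16.7 CPM in WT library 1 and at 0 in the other 5, and did not pass the filter for testing. Gm8226, a matched copy of Rpl7a, was at 0.560 CPM in WT library 1 and at 15.3 to 19.7 CPM in the other 5. Whether reads were divided differently between the copies of such a pair was not tested.

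**Figure D3:**
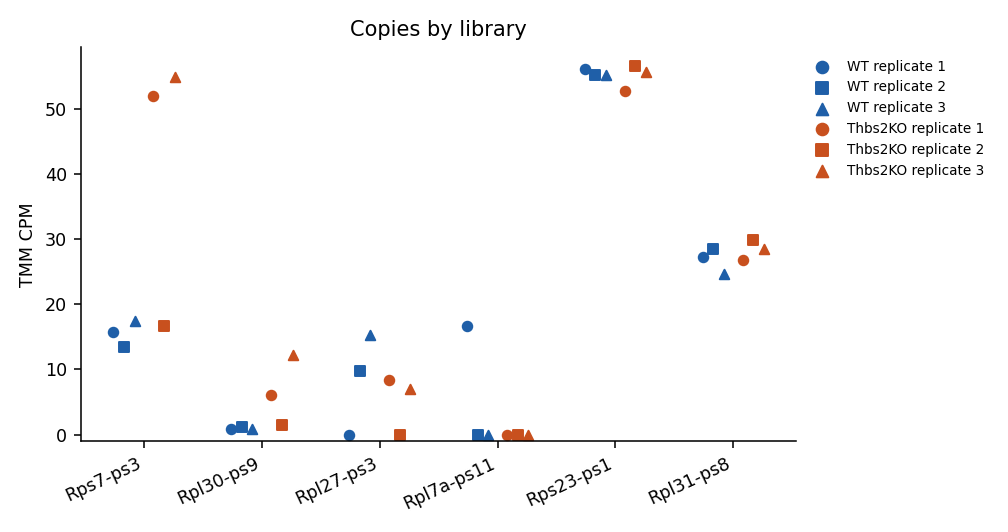
TMM CPM of 6 copies in each library, 1 point per library, with WT and Thbs2KO in different colours and a marker for each replicate number; Rps23-ps1 and Rpl31-ps8 are shown beside them as copies that were not called. Rps7-ps3 and Rpl30-ps9 are raised in Thbs2KO libraries 1 and 3 and less so or not in library 2.

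The remaining copies were not called. Leaving out Rps7-ps3, Rpl30-ps9 and Rpl27-ps3, the 29 copies tested and not called had log2 fold changes from -0.60 (Rps18-ps3) to 0.80 (Rps18-ps6). Rps18-ps6 also varied within the groups, at 2.63, 1.14 and 2.56 CPM in WT and 4.78, 4.36 and 1.86 CPM in Thbs2KO. The most abundant of them were Rpl14-ps1 at 75.9, 86.6 and 77.7 CPM in WT and 69.0, 68.3 and 73.4 CPM in Thbs2KO, and Rpl3-ps1 at 67.4, 70.0 and 70.2 CPM against 73.1, 70.2 and 66.4 CPM. Copies of the large-subunit genes at intermediate levels were Rpl10-ps3, Rpl10a-ps1, Rpl15-ps3, Rpl19-ps11, Rpl31-ps8, Rpl36a-ps2, Rpl9-ps4 and Rpl9-ps6, and low ones were Rpl17-ps10, Rpl17-ps3, Rpl17-ps8, Rpl23a-ps3 and Rpl28-ps1. Among these 13 the widest log2 fold change was that of Rpl9-ps6 at 0.52 (adjusted p = 0.322, edgeR). Copies of small-subunit genes were Rps23-ps1 and Rps6-ps4 at 50.1 to 61.7 CPM in every library, Rps12-ps3 at 10.6 to 14.3 CPM, and at lower levels Rps10-ps2, Rps13-ps2, Rps16-ps2, Rps19-ps6, Rps24-ps3, Rps26-ps1, Rps27a-ps2, Rpsa-ps10 and Rpsa-ps2. None of these was called.

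Identity and the number of mismatches did not mark out the called copies in these alignments. The 5 called had 2 to 9 mismatches and identities of 98.9% to 99.5%. The 21 copies not called with a mismatch or gap had 1 to 9 mismatches and identities of 98.9% to 99.8%. The share of stretches of 100 bases found unchanged in the gene did lean lower in the called copies. It was 18.4% (Rps3a3) to 53.4% (Rps3a2) in the 5 called, and 35.3% (Rps24-ps3) to 85.8% (Rpl3-ps1) in those 21. The 12 copies with no mismatch or gap, whose reads cannot be told from the gene's over the aligned part, included none of the 5. GENCODE M21 lists 31 copies as processed pseudogenes, 3 as transcribed processed pseudogenes and 4 (Rps18-ps6, Rpl9-ps6, Rps12-ps3 and Rpl10-ps3) as protein-coding. Of the 38, 13 lie inside a protein-coding gene, 5 of them on its strand.

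Among the 85 genes read one by one, 2 were called and both were lower in Thbs2KO (2.35%, against 0.537% of all genes tested called lower), and none was called higher (1 had an unadjusted p under 0.05 and was higher). DESeq2 called none higher and 3 lower. The one beside Rps3a1 was Rps4l (ENSMUSG00000063171.4, chr6:148354656-148355598, plus strand), a paralog of Rps4x that GENCODE M21 lists as a transcribed processed pseudogene. Rps4l was at 42.3, 44.1 and 44.8 CPM in WT and at 32.7, 31.6 and 31.0 CPM in Thbs2KO. The groups did not overlap, and the log2 fold change was -0.46 (95% interval -0.63 to -0.30, adjusted p = 0.0408, edgeR). Of the 6 fits with a library left out, only the one lacking WT replicate 1 kept this call. Leaving out WT replicate 2 or 3 gave an adjusted p of 0.15 or 0.193, and leaving out Thbs2KO replicate 1, 2 or 3 gave 0.188, 0.179 or 0.0767. Its aligned sequence was 80.5% identical to Rps4x and shared no stretch of 50 bases with it, so the reads of the pair can be told apart. Rps4x, which encodes the small-subunit protein itself, was at 680, 684 and 668 CPM in WT and at 696, 703 and 676 CPM in Thbs2KO (log2 fold change 0.03, adjusted p = 0.913, edgeR).

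The other genes were nearly level. Of the 85, 67 had a log2 fold change within 0.1 of 0 (78.8%), against 39.8% of all genes tested and 50.9% of the 1961 tested genes in the CPM range of the 79 members at 100 CPM or more. The 95% interval lay within 1.5-fold in either direction for 82 of them (96.5%, against 56.0% of all genes tested and 77.9% of those in this CPM range). The median size of the log2 fold change was 0.05, against 0.14 over all genes tested and 0.10 in this CPM range. The groups did not overlap for 11 genes (12.9%, 3 higher and 8 lower), against 19.7% of all genes tested. Besides those above, they included Rpl22l1, Rpl5, Rps14, Rps26, Rps27l and Rps9. Of the 31 genes with a copy at 1 CPM, 27 were within 0.1 of 0, with a range from -0.84 to 0.08; of the 54 without one, 40 were, with a range from -0.46 to 0.17. Replicates were close too: the median coefficient of variation between libraries was 3.69% in WT and 4.52% in Thbs2KO, against 11.5% in both groups over all genes tested and 7.84% and 7.46% in this CPM range.

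**Figure D4:**
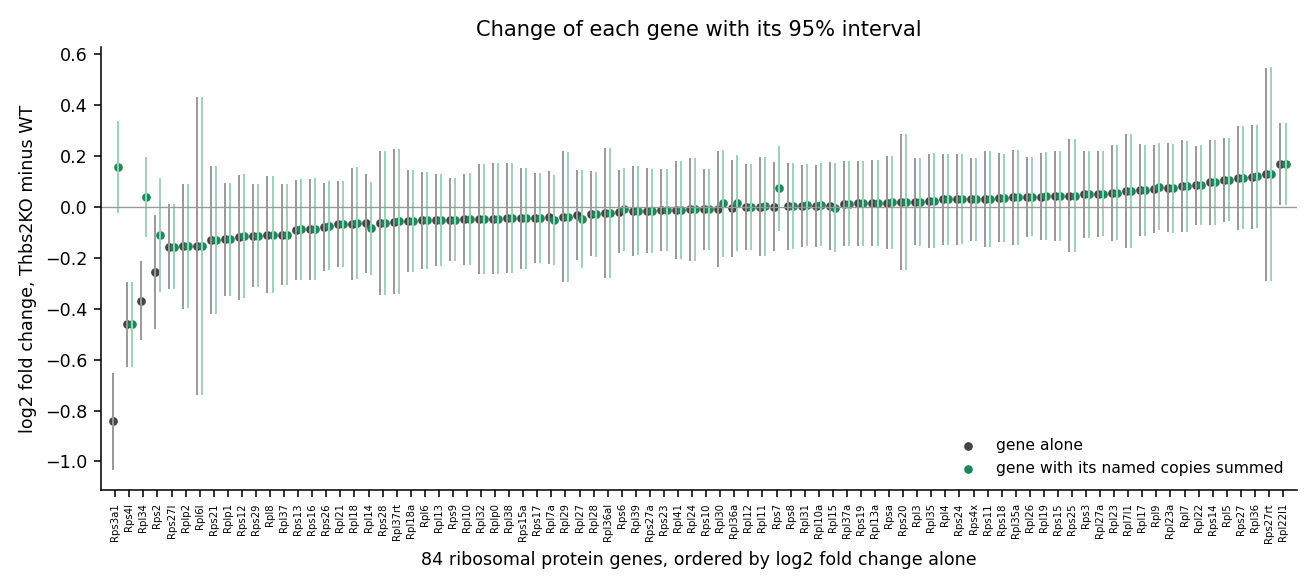
Log2 fold change of 84 of the 85 genes with its 95% interval, ordered by the change of the gene alone, with the value after summing with named copies beside it. Rps3a1, Rps4l, Rpl34 and Rps2 form the lower end from -0.84 to -0.26, and after summing only Rps4l stays below -0.2.

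Several ribosomal proteins have a paralog encoded by a gene of its own. Rpl22l1, the paralog of Rpl22, was at 72.2, 75.9 and 75.1 CPM in WT and at 85.8, 86.0 and 79.1 CPM in Thbs2KO. Its log2 fold change of 0.17 was the highest of the 85, and it was not called (adjusted p = 0.348, edgeR). Rps27l, the paralog of Rps27 known as a target of p53, was at 101, 108 and 108 CPM in WT and at 97.2, 98.7 and 89.5 CPM in Thbs2KO (log2 fold change -0.16, adjusted p = 0.415, edgeR). Rpl7l1 and Rpl36al had log2 fold changes of 0.06 and -0.02. At the upper end also stood Rps27rt, Rpl36, Rps27 and Rpl5, with log2 fold changes of 0.13, 0.12, 0.11 and 0.11, none called. Rpl5 and Rpl11, which bind Mdm2 when ribosome assembly fails, had log2 fold changes of 0.11 and 0.00.

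The stalk proteins recruit the GTPases that drive translation. Rplp0 was at 1982, 1870 and 1768 CPM in WT and at 1744, 1756 and 1941 CPM in Thbs2KO. Rplp1 was at 1078, 982 and 928 CPM against 861, 969 and 906 CPM, and Rplp2 at 538, 512 and 460 CPM against 417, 500 and 440 CPM. The groups overlapped for all 3 genes and none was called. Rpsa, a small-subunit protein also known as a laminin receptor, was at 1730, 1678 and 1638 CPM in WT and at 1688, 1674 and 1745 CPM in Thbs2KO (log2 fold change 0.02, adjusted p = 0.962, edgeR).

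Summed over the 85 genes, the level per library was 44560, 45180 and 43805 CPM in WT and 43178, 44340 and 43072 CPM in Thbs2KO. The log2 ratio of the means was -0.03 with TMM scaling and 0.03 on library totals without it, so its direction depends on the scaling. The copies summed to 561, 570 and 568 CPM in WT and to 1335, 1232 and 1319 CPM in Thbs2KO. Each Thbs2KO library was above each WT library, but part of this gap was set by the choice of copies. Of the 38 copies, 4 (Rps3a3, Rpl34-ps1, Rps2-ps6 and Rpl30-ps9) reached 1 CPM through the Thbs2KO libraries alone. The difference lay mainly in the copies of Rps3a1, Rps2 and Rpl34, which were 469, 164 and 71.4 CPM higher in Thbs2KO. In the other 28 families the difference in the copies was between -9.83 and 25.6 CPM per family. Genes and copies together were at 45081 ± 689 CPM (SD, n = 3) in WT and at 44825 ± 649 CPM (SD, n = 3) in Thbs2KO. Without Rps3a1, Rps2 and Rpl34 the genes were at 41536 and 41288 CPM. Transcripts of the mitochondrial genome summed to 13077 ± 418 CPM in WT and to 11361 ± 1237 CPM in Thbs2KO (SD, n = 3 each, TMM scaling only). By library these were 12595, 13344 and 13291 CPM in WT and 12001, 12147 and 9936 CPM in Thbs2KO, with Thbs2KO library 3 the lowest.

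Levels were compared between genes as CPM per kilobase of transcript. The median gene was at 635 CPM per kb and the first and the third quartile of the 79 genes at 100 CPM or more were 504 and 844 CPM per kb. Highest were Rplp1 (1912 CPM per kb), Rps2 (1710), Rps18 (1502), Rplp0 (1357) and Rps12 (1291). Lowest were Rpl6l (4.51), Rps27rt (12.8), Rps4l (47.9), Rpl37rt (48.5) and Rpl7l1 (69.5), all of them paralogs or retrotransposed relatives of a standard gene. Rps27rt is identical to Rps27 over its 341 aligned bases, and Rpl37rt and Rpl6l differ from Rpl37 and Rpl6 at 1 and 11 bases, so their levels share the uncertainty of the copies. The median copy was at 12.4 CPM per kb over all libraries. Rps3a2 was at 21.5 CPM per kb in WT and at 406 in Thbs2KO, while Rps23-ps1, the highest copy in WT, was at 130 and 129.

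**Figure D5:**
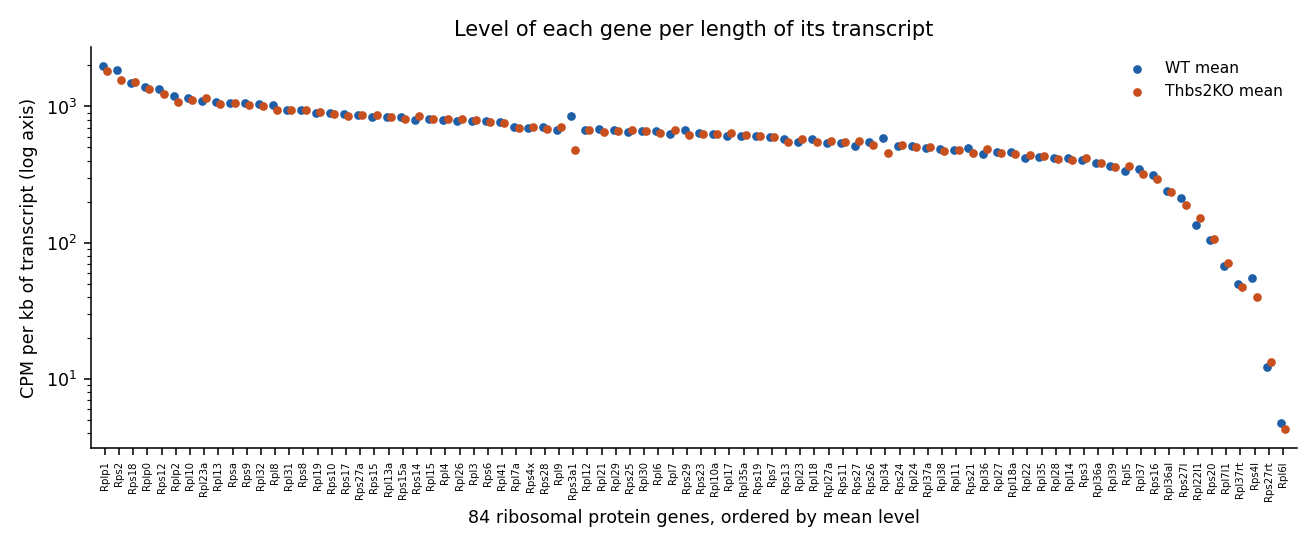
CPM per kb of transcript on a log axis for 84 of the 85 genes, ordered by mean level, with the WT and Thbs2KO means as separate points. The points of a gene nearly coincide except for Rps3a1, Rps4l, Rpl34 and Rps2, where Thbs2KO is lower.

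Messenger RNAs of ribosomal proteins typically start with a run of pyrimidines, the TOP tract, through which growth signals set their translation. A tract was taken as a C followed by at least 5 bases that are each C or T, on the strand of the gene, starting within 5 bases of the RefSeq start on GRCm38.p6. Of 63 genes with a RefSeq promoter window, 27 had one (42.9%), against 11.95% of 27025 symbols; no copy had a window. The windows below, 30 bases around the start with the tract in capitals, show Rpl34 (at one of its RefSeq starts), Rps2 and Rpl22l1, which stood at the edges of the comparison, and Rpl27a, whose tract is the longest. Rps3a1 and Rps27l, also at the edges, have windows without such a tract.
Rpl34: cttttCCTCTTCCggggacggtgctcagag
Rps2: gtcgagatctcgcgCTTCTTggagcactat
Rpl22l1: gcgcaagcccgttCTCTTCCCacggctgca
Rpl27a: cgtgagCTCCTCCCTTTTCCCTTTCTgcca
The tract is a description of the annotated start. RNA levels bear on the amount of these messengers and not on how they were translated.

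Genes that work with the ribosome were read from the same fit. Of 3 ribosomal proteins with other names, none was called; Rack1, a signalling scaffold on the small subunit, was at 1054, 1075 and 1058 CPM in WT and at 1001, 1026 and 1067 CPM in Thbs2KO (log2 fold change -0.04, adjusted p = 0.88, edgeR). None of 18 translation factors and other TOP messengers was called, with a median log2 fold change of -0.02; closest were the initiation factors Eif3f (-0.14) and Eif4b (0.11). None of 38 genes of ribosome assembly and RNA polymerase I was called either. Of these, 32 were negative, against 6912 of all 13590 genes tested. Their median was -0.08, against 0.00 over all genes tested. In this group WT library 1 and Thbs2KO library 3 stood apart: Ncl, nucleolin, was at 637, 862 and 953 CPM in WT and at 864, 878 and 633 CPM in Thbs2KO. Without both libraries (chosen after seeing the data), 28 of the 38 had a lower mean in Thbs2KO, with a median log2 ratio of -0.07. Bysl, a small-subunit assembly factor, had the smallest p of these (log2 fold change -0.31, adjusted p = 0.391, edgeR), followed by Ubtf, which activates RNA polymerase I (0.13, adjusted p = 0.484).

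Of 15 regulators of Myc, mTORC1 and TOP messengers, none was called and 3 had an unadjusted p under 0.05, all lower: Tsc2, Mlst8 and Rheb, with log2 fold changes of -0.25, -0.30 and -0.28 (adjusted p = 0.242, 0.263 and 0.324, edgeR), against 13.3% of all genes tested with such a p. Tsc2 restrains the GTPase Rheb, which activates mTORC1, and Mlst8 is a subunit of that kinase complex. None of 14 genes of ribosome rescue and collision sensing was called, with Rnf10, a ubiquitin ligase of the small subunit, closest (log2 fold change -0.18, adjusted p = 0.281, edgeR) and Edf1, a sensor of collided ribosomes, next (-0.13, adjusted p = 0.515). Of 78 mitochondrial ribosomal protein genes, which serve the separate ribosome of the mitochondrion, 2 were called lower, against 0.537% of all genes tested, and none higher. Mrpl33 was at 39.9, 41.4 and 42.6 CPM in WT and at 23.97, 25.8 and 23.2 CPM in Thbs2KO (log2 fold change -0.76, adjusted p = 0.0108, edgeR). Mrps12 was at 19.0, 22.2 and 21.04 CPM against 10.8, 11.7 and 9.29 CPM (log2 fold change -0.97, adjusted p = 0.0244, edgeR). The median log2 fold change over the 78 was -0.02, and DESeq2 called 3 of them lower and none higher. DESeq2 called none of the other 5 groups' genes, and outside the regulators only Rnf10 had an unadjusted p under 0.05 in those groups.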

How the data were processed

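The authors deposited RSEM expected counts per gene for the 6 libraries, not normalized; per the submitters' processing notes, reads were trimmed with Trimmomatic 0.39, aligned with STAR 2.7.3a to mm10 and counted with RSEM, which divides reads that match several genes. The annotation release is not given in the sources used here. Expected counts were rounded, 13590 genes passed edgeR's expression filter, and TMM CPM and the robust quasi-likelihood test (edgeR 4.0.16, R 4.3.3) with Benjamini-Hochberg adjustment over all genes tested were used, called at adjusted p under 0.05, with genotype as the only term. Intervals are 95%. The same fit was made after adding named copies to their gene, and after adding copies matched by BLAST+ 2.17.0 (90% identity or more, covering 50% or more of the copy; an alternative chosen after seeing the data). Positions, lengths and sequences came from GENCODE M21 and RefSeq. Copies were aligned with Biopython 1.88. DESeq2 1.42.0 and limma 3.58.1 (voom), other scalings and filters, the replicate number as a block and left-out libraries were alternatives.

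Named are all copies with a mean of 1 CPM or more, called genes, the 5 highest and 5 lowest per kb, the 5 largest changes each way, stalk genes, Rpsa and paralogs, and called or nearest genes of the lists. Rpl11, Rps4x, Rheb, Gm7143 and the genes whose groups did not overlap were chosen after their values were seen. The members and the lists were chosen with earlier results of these data known. On simulated counts for 13433 genes with 200 changed, the test called 13 of 50 at 1.5-fold, 37 of 50 at 2-fold, 47 of 50 at 4-fold and 48 of 50 at 8-fold, with 10 unchanged genes called. Some results on single genes are not reported here.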

Additional observations from a re-analysis of the deposited data

How the results depend on the processing

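The 5 called copies passed under every alternative run. The count of ribosomal protein genes called (2) was 1 with no filter on low counts, 4 without both WT replicate 1 and Thbs2KO replicate 3 (Rps2 and Rpl34 were added, adjusted p = 0.034 and 0.00459), 0 with Thbs2KO replicates 1 and 2 summed to 1 library, and 0 to 3 with 1 library left out. The count with named copies summed (1) was 0 with no filter, 0 with replicates 1 and 2 summed, and 0 to 1 with 1 library left out. Copies called ran from 5 to 6 with 1 library left out. The log2 ratio of the summed genes (-0.03) was 0.0293 with CPM on library totals, and -0.04 to -0.01 with 1 library left out. With the replicate number as a block the counts were 0 for genes alone and 0 with copies summed. The adjusted p was then 0.116 for Rps3a1 and 0.259 for Rps4l (edgeR), with log2 fold changes of -0.84 and -0.46. Deviations of same-numbered libraries from their group means correlated at -0.29, 0.17 and -0.33. Those of WT replicate 1 and Thbs2KO replicate 3 correlated at 0.40. These values cannot decide whether the numbers pair the libraries, because those 2 libraries stood apart from their groups. Rps4l was not called with no filter (adjusted p = 0.0556) or with replicates 1 and 2 summed (0.179), nor was Rps3a1 in the latter (0.0724). For the changes in call, the cause was not tested. Read division between near-identical copies limits every value of a single gene or copy, and low copies rest on few reads.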
